A study of Mus musculus with 3 samples.

Results

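NF-kB is a family of dimeric transcription factors. The genes described here are its 5 subunits, Nfkb1, Nfkb2, Rel, Rela and Relb, and 5 genes grouped as its inhibitors. The latter are Nfkbia, Nfkbib, Nfkbie, Nfkbiz and Tnfaip3. The 10 genes were chosen by symbol, and all stand among the 16129 genes listed in the deposited table. The cells were type 2 innate lymphoid cells (ILC2s), lymphocytes that lack antigen receptors and secrete type 2 cytokines, sorted by flow cytometry from lungs of wild type mice treated in vivo with IL-33. The 3 RNA-seq libraries share these labels and form 1 group. No strain, age, IL-33 dose or sorting gate is given in the sources used here, and they do not state whether separate animals were used. The SDs therefore measure the spread between libraries, which may be technical, and p-values take libraries, not animals, as their units. Without untreated cells, the comparisons that the design allows are between genes of the same library.

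The subunits share a Rel homology domain that binds DNA and pairs the proteins. Nfkb1 and Nfkb2 encode the precursors p105 and p100, which are processed to the DNA-binding subunits p50 and p52, and Rel, Rela and Relb encode the subunits with an activation domain. In resting cells the classical inhibitors IkB-alpha, IkB-beta and IkB-epsilon, from Nfkbia, Nfkbib and Nfkbie, hold dimers in the cytoplasm. Receptors such as that for IL-33 signal through MyD88 to the IkB kinase complex (IKK), which marks the inhibitors for destruction and frees the dimers. Nfkbiz encodes IkB-zeta, a nuclear protein that works with p50 at promoters. It is counted with the inhibitors here by its IkB family, and not as a gene shown to restrain NF-kB. Tnfaip3 encodes A20, a ubiquitin-editing enzyme that damps signalling upstream of IKK. Nfkbia and Tnfaip3 are themselves well-known NF-kB targets, and so form negative feedback loops. RNA levels of these genes do not show how much of each protein was in the nucleus.

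Each library held between 19883728 and 19976129 estimated reads, and levels are given in TPM, the abundance unit that is scaled by transcript length and by depth. The label was checked against ILC2 markers. All 11 of them had a mean above 100 TPM, a level that 10.3% of all listed genes reached. Il1rl1, the IL-33 receptor, was at 1064 ± 33.2 TPM (SD, n = 3). Of 44 listed markers in 8 lists for other cell types, 19 were detected, against 67.3% of all listed genes. A mean of 20 TPM was reached by 3, namely the macrophage genes Chil3 and Lyz2 and the epithelial gene Cdh1. No share of all listed genes was taken at 20 TPM. Detection required at least 1 TPM in every library.

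All 10 NF-kB genes were detected, against 67.3% of all listed genes. 5 of the 10 reached a mean of 100 TPM, against 10.3% of all listed genes, 7 reached 50 TPM, against 21.4%, and 3 reached 200 TPM, against 4.37%. They spanned a wide range, with Tnfaip3, Nfkb1 and Nfkbia far above the others and Rel at the low end. The median of the subunits was 105 TPM and that of the inhibitors 65.6 TPM, while the median over all listed genes was 11.2 TPM.

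**Figure D1:**
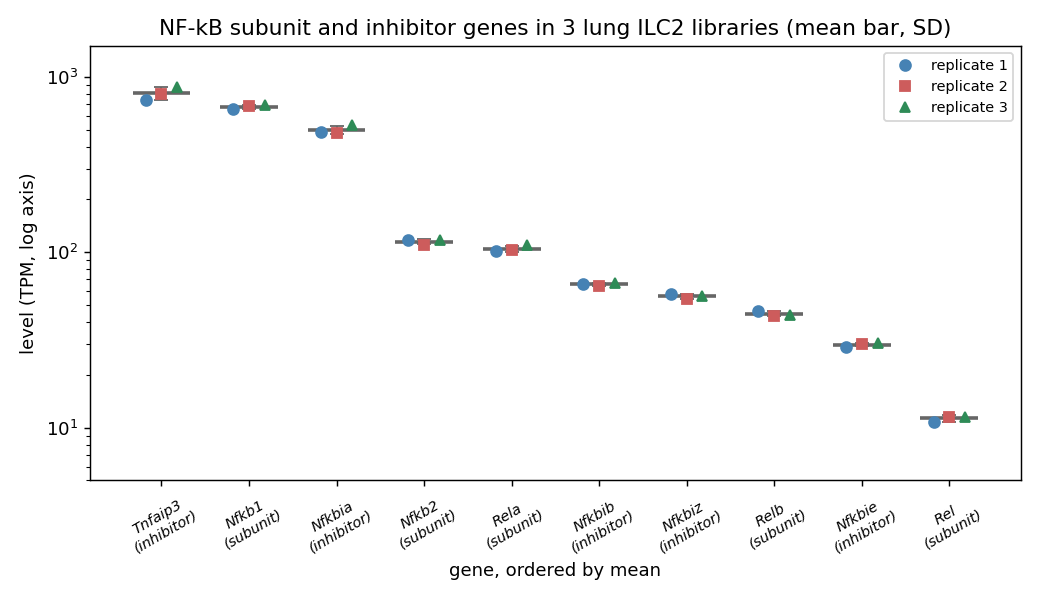
Level of each gene in TPM (log axis) in replicates 1, 2 and 3 (points), with the mean (horizontal bar) and SD (error bar), ordered by mean. Tnfaip3, Nfkb1 and Nfkbia stand apart at means of 807, 677 and 498 TPM, and Rel is lowest at 11.3 TPM.

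Among the subunits Nfkb1 was by far the most abundant transcript. It had 656, 685 and 688 TPM in replicates 1, 2 and 3 (677 ± 17.6, SD, n = 3) and ranked at position 194 of all listed genes. It made up 71.1% ± 0.732 of the summed TPM of the 5 subunits. Nfkb1 (Entrez gene 18033) lies on chromosome 3 from 135584655 to 135691969 in GRCm38.p6, the build used for all positions here. Nfkb2, the precursor gene of the alternative pathway, had 118, 110.1 and 117 TPM (115 ± 4.35). The difference Nfkb1 minus Nfkb2 was 2.55 ± 0.080 on the log2(TPM + 1) scale (SD over 3 libraries), which is 5.84-fold. It was positive in 3 of 3 libraries and many times larger than its spread. With 3 libraries the smallest p of the exact two-sided permutation test by sign flips is 0.25, and this was the p here and for each of the 17 contrasts described, 13 between these genes and 4 with other families. Nfkb2 (18034) lies on chromosome 19 from 46300994 to 46312400.

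The 3 subunits with an activation domain were lower than the Nfkb1 precursor, and of unequal level. Rela, which encodes p65, the activating partner of p50 in the commonest dimer, had 101, 103 and 109 TPM (105 ± 4.31). Nfkb1 exceeded Rela by 2.68 ± 0.038 on the log2(TPM + 1) scale, or 6.42-fold. Relb, the usual partner of p52, had 46.1, 43.4 and 44.0 TPM (44.5 ± 1.45). Relb lay below Rela by a log2 difference of -1.21 ± 0.092, so that the Rela level was 2.32 times the Relb level on the TPM + 1 scale. Rel, which encodes c-Rel, a subunit known for its roles in lymphocytes, was the lowest of all 10 genes at 10.74, 11.57 and 11.55 TPM (11.3 ± 0.474). The difference Rel minus Rela was -3.10 ± 0.044, an 8.59-fold lower level of Rel. All libraries kept the order Rela, Relb, Rel. Rela took 65.2% ± 1.17 of the TPM of these 3 genes, Relb 27.8% ± 1.31 and Rel 7.04% ± 0.257. Rela (19697) lies on chromosome 19 from 5637442 to 5648134, Relb (19698) on chromosome 7 from 19606217 to 19629438 and Rel (19696) on chromosome 11 from 23736847 to 23770969.

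Set side by side as pathways, the genes of the canonical arm (Nfkb1, Rel and Rela) summed to 793 ± 21.6 TPM and those of the alternative arm (Nfkb2 and Relb) to 160 ± 5.46 TPM. The difference of the log2 sums was 2.31 ± 0.078, or 4.94-fold, in 3 of 3 libraries. Nfkb1 alone, at 677 TPM, made up most of the canonical sum, so the difference does not hold for each gene of the arm. Rela at 105 TPM and Rel at 11.3 TPM were each below Nfkb2 at 115 TPM. Within the alternative arm, Nfkb2 exceeded Relb by 1.35 ± 0.040, or 2.55-fold.

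The inhibitors were led by the pair of feedback genes. Tnfaip3 was the highest of the 10 genes, with 741, 803 and 877 TPM (807 ± 68.1), and ranked at position 159 of all listed genes. Nfkbia had 485, 481 and 529 TPM (498 ± 26.5) and ranked at position 251. Both were highest in replicate 3, and their ranges did not overlap. Tnfaip3 exceeded Nfkbia by 0.69 ± 0.071 on the log2(TPM + 1) scale, or 1.62-fold. Tnfaip3 (21929) lies on chromosome 10 from 19000910 to 19015410, and Nfkbia (18035) on chromosome 12 from 55489409 to 55492647.

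The other classical inhibitors were far below Nfkbia. Nfkbib had 66.15, 63.9 and 66.75 TPM (65.6 ± 1.5). Nfkbia exceeded it by 2.91 ± 0.057, or 7.49-fold. Nfkbie had 29.0, 29.9 and 30.3 TPM (29.7 ± 0.669), and Nfkbia exceeded it by 4.02 ± 0.058, or 16.3-fold. Nfkbie lay below Nfkbib by a log2 difference of -1.12 ± 0.046. Of the summed TPM of these 3 genes, Nfkbia made up 83.9% ± 0.493, Nfkbib 11.1% ± 0.372 and Nfkbie 5.01% ± 0.178. The nuclear gene Nfkbiz had 57.7, 54.2 and 56.2 TPM (56.0 ± 1.78) and differed from Nfkbia by -3.13 ± 0.082, an 8.75-fold lower level. Nfkbib (18036) lies on chromosome 7 from 28758251 to 28766644, Nfkbie (18037) on chromosome 17 from 45555700 to 45563169 and Nfkbiz (80859) on chromosome 16 from 55811375 to 55838954.

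Inhibitor transcripts outnumbered those of the activating subunits. Nfkbia, Nfkbib and Nfkbie summed to 594 ± 28.1 TPM, and Rel, Rela and Relb to 160.4 ± 3.94 TPM. The difference of the log2 sums was 1.88 ± 0.033, or 3.68-fold, in 3 of 3 libraries. The precursors p105 and p100 can hold dimers in the cytoplasm as well, and Nfkb1 and Nfkb2 together summed to 792 ± 16.1 TPM. For single genes, Nfkbia exceeded Rela by 2.24 ± 0.029, or 4.73-fold. Nfkbia, Nfkbiz and Tnfaip3 are also rapid-response genes, and before staining and sorting the lungs went through an enzymatic digestion of 15 min at 37 °C. No undigested library was analysed here, so levels set in the animal and levels set during preparation cannot be told apart.

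**Figure D2:**
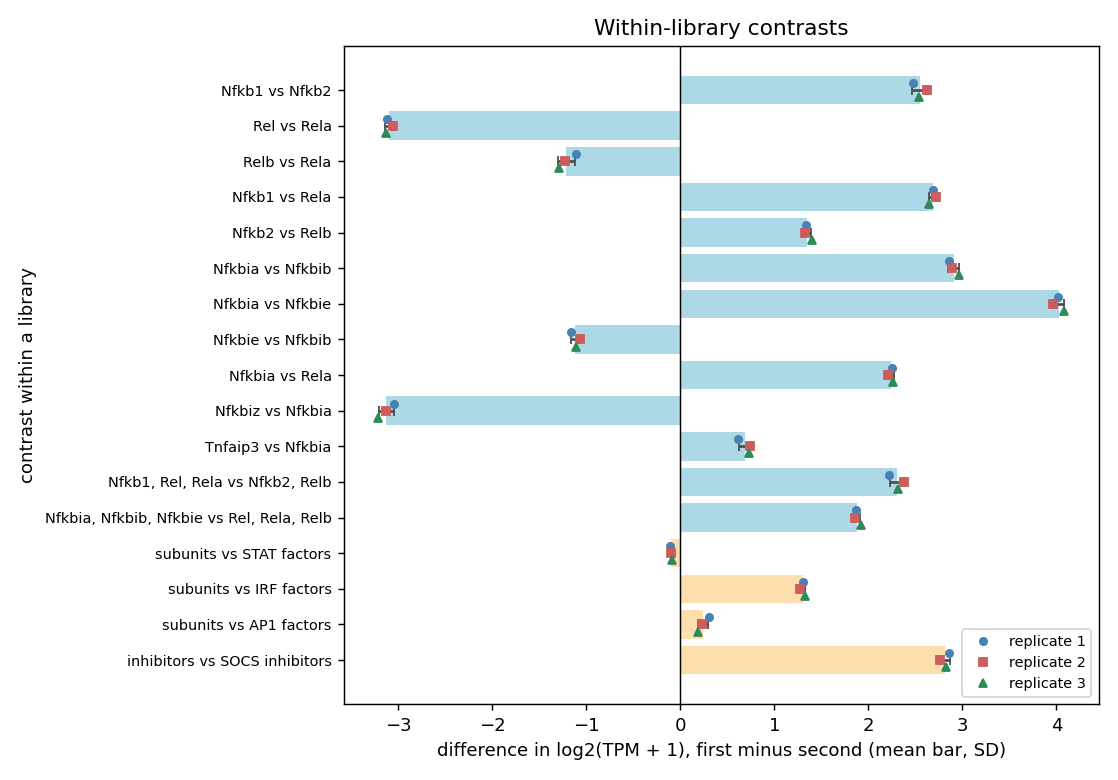
Difference in log2(TPM + 1), first minus second, for the 13 contrasts between the NF-kB genes (blue) and the 4 with other gene families (orange). Bars are means with SD over the 3 libraries, and points are single libraries. The libraries lie close together beside the size of most contrasts, as for Nfkbia against Nfkbie at 4.02 ± 0.058.

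From highest to lowest mean TPM the order was Tnfaip3, Nfkb1, Nfkbia, Nfkb2, Rela, Nfkbib, Nfkbiz, Relb, Nfkbie and Rel. The per-library ranges of neighbours in this order did not overlap in any of the 9 pairs. The closest pair was Nfkb2 and Rela, with a log2 difference of 0.14 ± 0.071. That mean is 1.92 times its SD, and the lowest Nfkb2 value, 110.1 TPM, stood just above the highest Rela value, 109 TPM. Tnfaip3 and Nfkb1 differed by 0.25 ± 0.089, which is 2.80 times the SD. Nfkbib and Nfkbiz differed by 0.22 ± 0.027, or 8.26 times the SD. The widest step was between Nfkbia and Nfkb2, at 2.10 ± 0.066.

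The order in its lower part depended on transcript length. The deposited counts and FPKM imply the effective length that the authors' estimate used for each gene, and it ranged over these genes from 1365 bases for Nfkbib to 7414 bases for Rel. Rel has 1 coding transcript in GENCODE M21, of 7466 bases. Nfkbia has 1, of 1578 bases, against an implied 1530.0 bases. By reads alone, as depth-scaled counts (CPM, not divided by length), Rel averaged 40.1 ± 1.37 CPM and Nfkbie 33.9 ± 0.492 CPM, so that Rel ranked above Nfkbie. Per length, the same pair stood at 11.3 TPM for Rel and 29.7 TPM for Nfkbie. The difference Rel minus Rela was -1.63 in log2(CPM + 1), against -3.10 per length. Nfkbib, at position 6 per length, stood at position 8 by reads, with 42.9 ± 0.633 CPM, below Nfkbiz at 96.8 ± 3.20 CPM and Relb at 45.8 ± 1.6 CPM. The 5 highest genes kept their positions on either scale. Without length the log2 difference was 2.20 for Tnfaip3 minus Nfkbia, -1.90 for Nfkbiz minus Nfkbia, -0.33 for Nfkbie minus Nfkbib and 1.06 for the summed classical inhibitors minus the summed activating subunits, each in the direction seen per length.

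**Figure D3:**
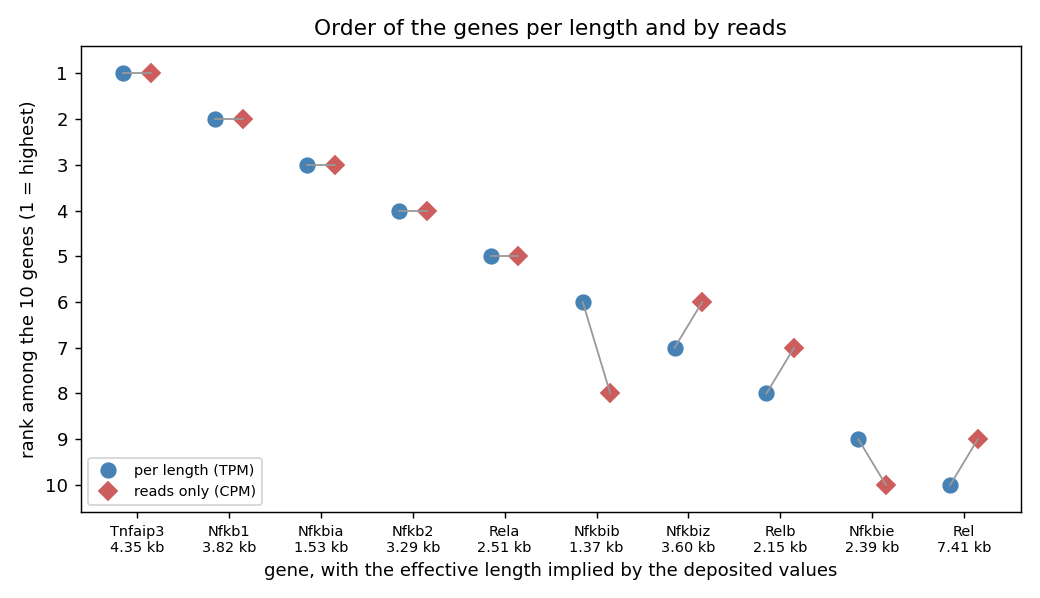
Rank of each gene among the 10 (1 is highest) per length, from mean TPM (circles), and by reads alone, from mean CPM (diamonds), with the implied effective length in kilobases under each gene. The 5 highest genes keep their ranks, while Nfkbib stands at 6 per length and 8 by reads, and Rel at 10 and 9.

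Reads of 2 of the genes in particular can be shared with other genes. Of the 50-base words in coding transcripts of Nfkb2, 16.7% also occur in transcripts of 2 other genes. For Nfkbib 12.6% also occur in transcripts of 1 other gene. The search did not record which genes these are. Opposite-strand neighbours that overlap Nfkb2 are Psd and an unlisted noncoding gene, and those of Nfkbib are Sirt2 and the unlisted Ccer2. Whether the counting used strand is not stated, so these levels are less certain. Psd was at 7.14 ± 0.241 TPM, far below Nfkb2 at 115 ± 4.35 TPM. In the gene models of GENCODE M21, Nfkbib and Sirt2 overlap by 778 bases on opposite strands, while the RefSeq position of Nfkbib given above ends before that Sirt2 model starts. Sirt2 was at 219 ± 3.96 TPM. For Relb the share of such words was 1.06% and for Rel 0.122%, and for the remaining 6 genes it was 0.

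The libraries lay close together for most of these genes. For Rel, Relb, Nfkbib and Nfkbie, which had between 666 and 950 estimated reads per library, the coefficient of variation (CV) of CPM was between 1.45% and 3.50%. Counting error alone gives between 3.31% and 3.84% at that depth, so at most 1.06 times as much variation was seen as counting gives. The 6 deeper genes had a CV above that of counting, by unequal margins. Tnfaip3, with between 31115 and 36263 estimated reads, had a CV of 7.62% against 0.546% from counting. That CV was higher than in 90.1% of the 8262 genes with a mean of at least 10 TPM, whose median was 3.64%. Nfkbia had 4.67% against 1.17%, Nfkb2 had 4.04% against 1.66% and Nfkb1 had 1.85% against 0.636%. Rela stood at 3.08% against 2.00% and Nfkbiz at 3.31% against 2.28%. A CV from 3 libraries is itself imprecise, and margins as small as those of Rela and Nfkbiz do not show variation beyond counting.

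Of the 10 genes, 6 were highest in replicate 3, namely Tnfaip3, Nfkb1, Nfkbia, Rela, Nfkbib and Nfkbie, against 41.2% of the 8262 genes. The ratio of TPM in replicate 3 to the mean of replicates 1 and 2 was 1.14 for Tnfaip3, 1.09 for Nfkbia and 1.07 for Rela, and between 0.982 and 1.04 for the other 7 genes. The median of this ratio over the 8262 genes was 1.01, and 2.63% of them had a ratio at least as high as Tnfaip3. Macrophage markers were also highest in that library. Their sum was 551 TPM in replicate 3, against 402 and 394 TPM in replicates 1 and 2, and 10 of the 11 listed markers were highest there, with a median ratio of 1.40. Only 3 of these 11 had a mean of 10 TPM or more, the level required of the 8262 genes. Chil3 made up most of the sum, at 338, 327 and 461 TPM in replicates 1, 2 and 3, Lyz2 was at 33.1, 37.4 and 46.75 TPM, and Adgre1 and Fcgr1 were below 1 TPM in all libraries. Marker sums for T cells, dendritic cells, neutrophils and endothelial cells were also highest in replicate 3, each at no more than 15.5 TPM. Those for B cells, NK cells and epithelial cells were highest in replicate 2. Of the 9 listed AP-1 genes, which include rapid-response genes, 6 were highest in replicate 3 as well, with a median ratio of 1.06. Jun was at 108, 113 and 138 TPM in replicates 1, 2 and 3, a ratio of 1.25. The ratio was 1.17 for Fosl2, 1.14 for Fosb, 1.06 for Junb, 1.01 for Fos, 0.984 for Jund and 0.980 for Batf. Of the 21 listed well-known NF-kB targets other than the inhibitors, 6 were highest in replicate 3, with a median ratio of 1.01. The sum of the ILC2 markers was 9097, 8903 and 8947 TPM in replicates 1, 2 and 3. In bulk RNA, more cells of a type and more RNA per cell cannot be told apart, and the part of macrophage RNA or of a rapid response in the Tnfaip3 and Nfkbia levels was not tested. Without replicate 3, Tnfaip3 still exceeded Nfkbia, by 0.67 on the log2(TPM + 1) scale.

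Promoter sequence was examined because several of these genes are known to be NF-kB targets. RefSeq promoter windows on GRCm38.p6, from 250 bases before to 50 bases after an annotated start, were matched for 7 of the 10 genes. Nfkb1, Relb and Nfkbiz had no entry. The windows were searched on both strands for the classical 10-base kappaB consensus. A match was found in at least 1 window of 5 of the 7 genes, namely Nfkb2, Rel, Nfkbia, Nfkbie and Tnfaip3, and in 7 of their 10 windows. Of all 32851 windows in the table, 4.5% held a match, and of the 16147 windows of listed genes 5.2% did. These shares are per window, and no share per gene was taken. Nfkb2 windows that overlap count the same stretch more than once. The 4 windows below show the pair of feedback inhibitors with the highest levels, the lowest gene of the set, and Rela, which has no match. They are written 5′ to 3′ along the gene, and capitals mark bases covered by a match on either strand.
Nfkbia chr12:55492598-55492897, minus strand: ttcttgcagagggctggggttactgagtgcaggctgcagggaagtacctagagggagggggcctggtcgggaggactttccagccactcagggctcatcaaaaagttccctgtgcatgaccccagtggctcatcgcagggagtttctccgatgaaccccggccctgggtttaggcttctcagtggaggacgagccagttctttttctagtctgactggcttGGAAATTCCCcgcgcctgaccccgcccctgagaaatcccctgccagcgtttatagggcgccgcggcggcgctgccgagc
Tnfaip3 chr10:19015361-19015660, minus strand: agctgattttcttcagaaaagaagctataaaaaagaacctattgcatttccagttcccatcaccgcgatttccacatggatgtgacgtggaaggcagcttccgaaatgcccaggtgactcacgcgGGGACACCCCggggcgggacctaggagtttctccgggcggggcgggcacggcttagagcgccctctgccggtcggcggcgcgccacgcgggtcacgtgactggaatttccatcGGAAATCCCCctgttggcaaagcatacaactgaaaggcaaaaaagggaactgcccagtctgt
Rel chr11:23770920-23771219, minus strand: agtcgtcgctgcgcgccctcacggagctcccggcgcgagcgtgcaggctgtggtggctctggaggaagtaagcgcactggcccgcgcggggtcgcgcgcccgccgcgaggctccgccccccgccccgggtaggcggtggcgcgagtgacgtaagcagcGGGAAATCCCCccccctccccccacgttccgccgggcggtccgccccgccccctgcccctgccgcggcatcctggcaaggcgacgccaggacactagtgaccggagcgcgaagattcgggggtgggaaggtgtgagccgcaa
Rela chr19:5637291-5637590, plus strand: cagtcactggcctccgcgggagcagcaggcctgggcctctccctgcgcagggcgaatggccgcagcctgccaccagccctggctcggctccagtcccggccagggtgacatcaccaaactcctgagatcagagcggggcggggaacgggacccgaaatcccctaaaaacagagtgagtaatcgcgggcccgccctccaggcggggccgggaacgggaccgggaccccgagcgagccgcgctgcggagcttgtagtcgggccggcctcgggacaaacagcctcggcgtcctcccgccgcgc

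The match in Nfkbia began 29 bases before the annotated start and read GGAAATTCCC along the gene. Tnfaip3 had 2 matches, 125 and 12 bases before the start. In Rel, 3 matches on both strands overlapped in a single stretch, GGGAAATCCCC, from 92 bases before the start. Nfkbie had GGGGGATTCC from 106 bases before its start. The first Nfkb2 window, from 46304487 to 46304786, had 2 stretches, GGGAATTCCCC and GGGGCTTTCC, 39 and 11 bases before the annotated start of that window. All Nfkb2 windows lie inside the gene position given above, and none covers its 5′ end at 46300994. The other Nfkb2 windows overlap and share the stretch GGGACTTTCC, and the window nearer the gene's 5′ end also held GGAATGTCCC. A match stood in windows of Tnfaip3 and Nfkbia, at 807 and 498 TPM, and in that of Rel, at 11.3 TPM. A match is a string of letters, and binding was not measured.

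**Figure D4:**
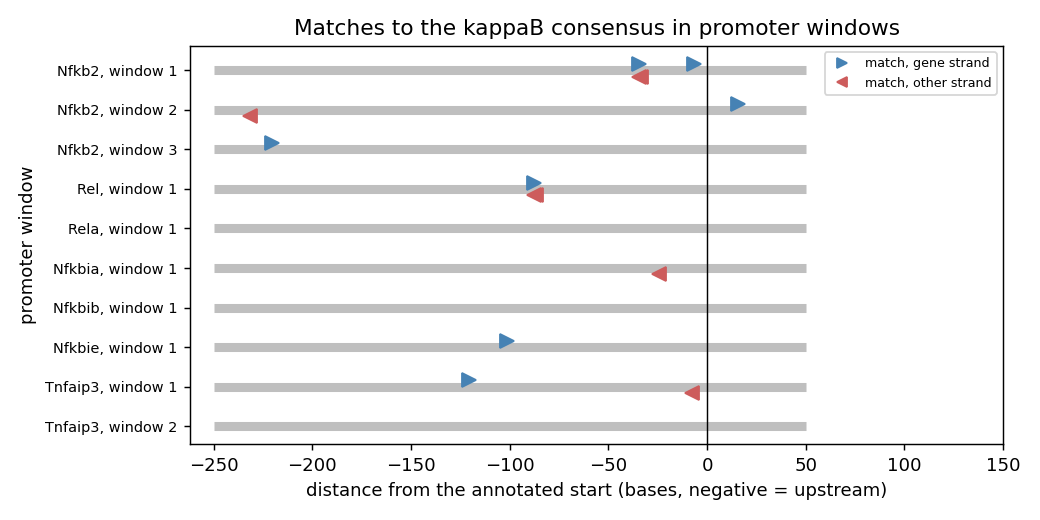
Positions of matches to the kappaB consensus in the 10 RefSeq promoter windows (grey bars), in bases from the annotated start (negative is upstream). Right-pointing triangles are matches along the gene and left-pointing triangles are matches on the other strand. 7 windows hold a match, and those of Rela and Nfkbib and the second Tnfaip3 window hold none.

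The machinery that acts on these genes' products was also transcribed. Of 44 further pathway genes in 7 lists, 43 were detected, against 67.3% of all listed genes, and 7 reached a mean of 100 TPM, against 10.3%. Their median was 48.2 TPM, against 11.2 TPM over all listed genes. The remaining nuclear IkB genes were both detected. Nfkbid, whose product IkB-NS binds p50 in the nucleus, stood at 104, 109 and 118 TPM (111 ± 6.73), above Nfkbiz at 56.0 ± 1.78 TPM. Bcl3, which encodes a nuclear partner of p50 and p52, stood at 42.1 ± 1.16 TPM.

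The IKK subunit genes were all detected. Ikbkb, the catalytic subunit of the canonical arm, was at 75.9 ± 1.97 TPM, Chuk, the catalytic subunit also used by the alternative arm, at 58.6 ± 1.05 TPM and Ikbkg, the scaffold NEMO, at 23.0 ± 0.165 TPM. Upstream of them, the kinase gene Map3k7 (TAK1) was at 35.0 ± 0.802 TPM and its partner genes Tab2, Tab1 and Tab3 at 184 ± 2.97, 15.3 ± 0.708 and 11.6 ± 0.770 TPM. Map3k14, the NF-kB-inducing kinase of the alternative arm, was at 37.6 ± 0.986 TPM, and the IKK-related genes Ikbke and Tbk1 at 47.0 ± 1.57 and 45.2 ± 1.63 TPM. The genes of the ubiquitin ligase that recognises phosphorylated IkB were all detected, with Skp1a at 173 ± 10.0 TPM, Cul1 at 73.6 ± 1.48, Rbx1 at 49.5 ± 2.44 and the alternative substrate receptors Fbxw11 and Btrc at 46.7 ± 2.09 and 12.8 ± 0.362. In the receptor chain that links IL-33 to IKK, the adaptor Myd88 (64.7 ± 1.15 TPM) and Irak1 (70.1 ± 1.93) were well below the receptor Il1rl1 at 1064 TPM. Irak4, Irak2, Traf6, Irak3 and the coreceptor Il1rap lay between 37.4 ± 0.797 and 11.1 ± 0.755 TPM.

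Around A20, the ubiquitin-binding partners Tax1bp1 and Tnip1 were at 184 ± 1.96 and 96.3 ± 4.33 TPM, Rnf11 at 95.5 ± 3.46 and Itch at 42.4 ± 2.21. Zc3h12a, which encodes the ribonuclease Regnase-1, was at 74.1 ± 2.00 TPM. Tnip2 was at 12.9 ± 0.44 TPM, and Tnip3 was the 1 pathway gene below 1 TPM in all libraries, at 0.74, 0.82 and 0.57 TPM. Each of these partners was lower than Tnfaip3 at 807 TPM. Genes of the linear ubiquitin ligase were at 128 ± 7.74 TPM for Rbck1, 66.1 ± 3.64 for Sharpin and 33.9 ± 2.00 for the catalytic subunit Rnf31. The deubiquitinase genes Cyld, Otulin and Otud7b were at 83.1 ± 3.04, 60.1 ± 8.71 and 19.9 ± 0.939 TPM. Among adaptors that control the alternative arm, Traf1 was at 109 ± 4.35 TPM, Birc3 at 99.9 ± 2.72, Traf2 at 60.3 ± 2.11, Birc2 at 51.3 ± 0.385, Traf3 at 39.7 ± 1.72 and Traf5 at 4.57 ± 0.570.

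Well-known NF-kB targets other than the inhibitors were of very unequal level. Of 21 listed targets 18 were detected, against 67.3% of all listed genes, with a median of 42.6 TPM, against 11.2 TPM. The highest were Gadd45b, a stress-response gene, at 441 ± 21.0 TPM, the survival gene Bcl2a1d at 305 ± 16.5 and then Traf1, Birc3 and Irf1. Bcl2a1d shares reads with near-identical copies, so its level is uncertain. Both Tnfaip3 and Nfkbia stood above all 21. Cd40 and Il1b were below 1 TPM in all libraries, at 0.333 ± 0.0709 and 0.727 ± 0.24 TPM.

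**Figure D5:**
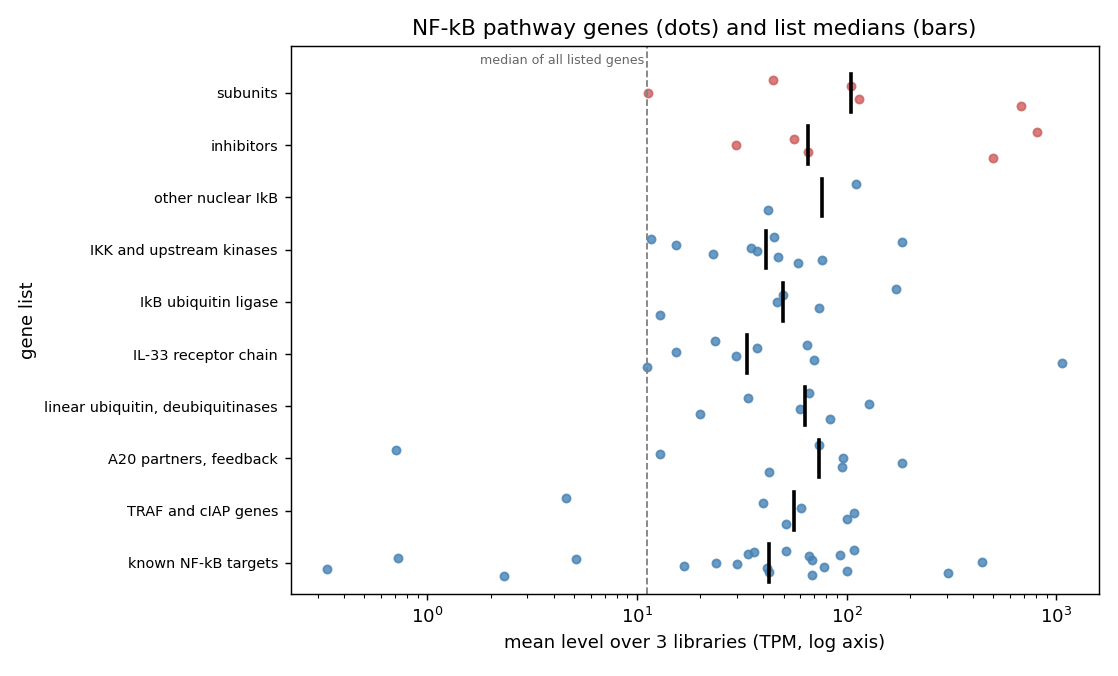
Mean TPM over the 3 libraries (log axis) of the subunits and inhibitors (red dots) and of pathway genes and known targets (blue dots), with each list's median (black bar). The dashed line is the median of all listed genes, 11.2 TPM, and the medians of all 10 lists lie to its right.

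Set against other families of inducible transcription factors, the subunits were close to the STAT genes and above the IRF genes. The mean log2(TPM + 1) of the 5 subunits was 6.42 ± 0.023 and that of the 7 STAT genes, which relay cytokine receptor signals, was 6.52 ± 0.011. Their difference was -0.10 ± 0.013, negative in 3 of 3 libraries, and shrank to -0.0066 with a pseudocount of 10. The subunits exceeded the 9 IRF genes, with a mean of 5.12 ± 0.019, by 1.3 ± 0.027, or 2.46-fold. Against the 9 listed AP-1 genes, with a mean of 6.18 ± 0.077, the difference was 0.24 ± 0.057. Its direction turned with the setting, to -0.23 with a pseudocount of 10 and to -1.41 over detected genes only, since Fosl1 and Batf3 were below 1 TPM in all libraries. The 5 inhibitors had a mean of 7.09 ± 0.046 and the 8 SOCS-family genes, feedback inhibitors of cytokine receptors, had 4.28 ± 0.059. The inhibitors were higher by 2.81 ± 0.050, or 7.03-fold, in 3 of 3 libraries. The families overlapped, since Cish, the highest SOCS-family gene, was at 243 ± 12.5 TPM, above Nfkbib, Nfkbiz and Nfkbie. The other SOCS-family genes reached at most 26.6 TPM (Socs4).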

How the data were processed

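RNA was sequenced from 3 libraries of 1 group of sorted lung ILC2s. Per the submitters' processing notes, Bowtie2, RSEM 1.3.1 and the build GRCm38.p6 were used, with no order or settings given. The authors deposited expected counts, TPM, FPKM and normalised read counts for 16129 genes. The deposited normalised counts, a depth-scaled signal, equalled the expected count rounded up and multiplied by a library factor between 0.997 and 1.0014 for 100% of values above 0 (relative tolerance 1e-06), and were not used further. Deposited TPM gave all levels, and differences were taken on the log2(TPM + 1) scale, where ratios of low genes come out too small. CPM and counting error came from the deposited counts, and intervals of counting error cover counting only, since reads are not independent molecules. Effective length was the expected count divided by FPKM and by the library's total count. Contrasts are the mean and SD of within-library differences. TMM factors came from edgeR 4.0.16 on expected counts rounded to whole numbers. The contrast code was tested on simulated counts of 8638 genes, and 99% of 200 altered genes came within 0.15 of the known log2 ratio. Each altered gene was set against its own known level. The simulation therefore checks the arithmetic only, and errors between genes from transcript length or shared reads were not tested.

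Replicate pairs differed by more than counting noise (chi-square per degree of freedom of 2.48 to 3.47 where a pair had 20 counts or more for a gene), so no pair was treated as repeat files of a single library. This does not show that they came from separate animals. Of the listed gene IDs, 16081 matched RefSeq of GRCm38.p6. Word sharing and transcript lengths came from GENCODE M21, on the same build. The members, gene lists and contrasts were chosen with earlier results of these data known. Named genes are the 10 members, every gene of the 7 pathway lists used here (1 further list is not reported here), the up to 5 highest and the undetected genes of the target and family lists, and the up to 4 highest of each marker list. Adgre1, Fcgr1, Fosb and Fosl2 were named after their values were seen, and not every gene the rule allows is named. Ccl20, Batf2, Marco, Cd209a and Ly6g are not listed and were not analysed here. No search was made for genes of like pattern, since 3 replicates of 1 group hold no pattern across conditions. Alternatives were other pseudocounts, detection levels, FPKM, CPM, TMM scaling and leaving out each replicate.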

Additional observations from a re-analysis of the deposited data

How the results depend on the processing

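Over the 140 alternative values of the 17 contrasts (pseudocounts of 0.1 and 10, FPKM, CPM, TMM scaling, each replicate left out, and detected genes only for the family contrasts), the direction turned in 2, both for the subunits against the AP-1 genes, at -0.23 with a pseudocount of 10 and -1.41 over detected genes only. Contrasts were taken within libraries, and with 1 group there were no replicate numbers to pair across groups. Of the 10 genes, all were detected at 0.5 and 5 TPM too. The detected share of all listed genes was taken at 1 TPM only (67.3%), so these counts have no share beside them. The count at a mean of 100 TPM, 5 (10.3% of all listed genes), became 3 at 200 TPM (4.37%) and 7 at 50 TPM (21.4%). At an FPKM of 100, a cut-off on another scale, it was 3. No share of all listed genes was taken at that FPKM, so this count cannot be set against the others. Without length (CPM), the contrast of subunits and STAT genes was -0.30, against -0.10 in TPM, and that with AP-1 genes was 0.81, against 0.24 in TPM. The exact sign-flip test of a contrast cannot go below 0.25 with 3 libraries or 0.5 with 2, so its p says nothing about stability. Depth limits Rel, Relb, Nfkbib and Nfkbie, where counting error is as large as the spread seen.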
